A study of Mus musculus with 2 samples.

Results

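Cytokine-burst T cells were defined here as CD3+ cells without Foxp3 UMIs (unique molecular identifiers, each standing for 1 captured RNA molecule) in which Ccl1, Csf2, Lif and Tnfsf11 together had at least 2 UMIs. They were thus chosen by the measured UMIs of these 4 genes, beside those of CD3 and Foxp3. Of 9844 quality-filtered cells in the library, 5932 were T cells without a Foxp3 UMI, and 161 of these were members. They were 2.71% of T cells without Foxp3 (exact binomial 95% interval 2.32 to 3.16). Among the members, 59 were Cd8-dominant, with more UMIs of Cd8a and Cd8b1 than of Cd4, and 102 were other members. They were compared with 1251 Cd8-dominant and 4158 other T cells without Foxp3 in which none of the 4 genes had a UMI, named comparators below. The 83 and 279 cells with exactly 1 such UMI were kept apart.

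The cells were TCR-β+ T cells sorted from B16 melanomas and from B16-IL33 tumors, a B16 line engineered to secrete the cytokine IL-33, on day 9 after inoculation into mice of the C57BL/6 background. Hashtag antibodies marked the tumor of origin, and all cells were loaded as 1 pool, which gave 1 gene expression, 1 hashtag and 1 TCR library by the 10x 5′ method. The sorting gate was not the same as a cell type: 714 quality-filtered barcodes had no CD3 UMI. With 1 library, cells are not replicates, so no p-value is given, and every interval covers counting error only.

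CCL1 is a chemokine that draws cells carrying the receptor CCR8. GM-CSF, encoded by Csf2, acts on myeloid cells, and LIF is a cytokine of the interleukin 6 family. RANKL, encoded by Tnfsf11, is a ligand of the TNF superfamily that acts on dendritic cells and osteoclast precursors. T cells can transcribe these genes in short pulses after the TCR is engaged, largely through the NFAT, AP-1 and NF-κB transcription factors. Neither TCR engagement nor timing was measured here.

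The 2 genes that led the 2 subsets are shown by the 250 bases before their RefSeq transcription start (GRCm38.p6, 5′ to 3′ on the gene's strand), since their promoters are where those factors act. The Ccl1 stretch lies at chr11:82179813-82180062 (minus strand) and that of Tnfsf11 at chr14:78308044-78308293 (minus strand), both before the first exon. Capitals mark the matches found among 4 motifs searched on both strands.
Ccl1: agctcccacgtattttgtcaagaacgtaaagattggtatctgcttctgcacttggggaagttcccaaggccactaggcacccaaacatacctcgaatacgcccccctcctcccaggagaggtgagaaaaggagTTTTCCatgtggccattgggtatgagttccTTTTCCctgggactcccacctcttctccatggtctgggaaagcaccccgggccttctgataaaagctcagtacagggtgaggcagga
Tnfsf11: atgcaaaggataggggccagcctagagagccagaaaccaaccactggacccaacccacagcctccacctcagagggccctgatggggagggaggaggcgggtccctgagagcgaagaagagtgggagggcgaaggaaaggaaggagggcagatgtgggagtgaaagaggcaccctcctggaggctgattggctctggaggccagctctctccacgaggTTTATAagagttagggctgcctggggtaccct
Ccl1 held 2 matches of the NFAT core GGAAAA, read on the opposite strand, starting 117 and 87 bases before the start, and 23.4% of 32851 promoters of the same 300-base window, which also takes in 50 bases after the start, held at least 1. Tnfsf11 held the TATA box letters TATAAA on the opposite strand, starting 32 bases before the start (13.6% of promoters). In the same window Lif held the AP-1 letters TGANTCA starting 228 bases before the start (7.81%) and Csf2 the NF-κB type letters GGNNTTTCC, on the opposite strand, starting at base 23 after the start (5.82%). The RefSeq start of Csf2 lies 232 bases upstream of the start in GENCODE vM21, and the GENCODE model of Ccl1 starts 125878 bases away from that of RefSeq. These matches are letters, and none was tested for binding.

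The 2 subsets carried the 4 genes in different proportions, as values that the rule itself used. Cd8-dominant members were led by Ccl1, at 404 CPM (UMIs per 1000000 in the group; Poisson 95% interval 359 to 454), with 282 UMIs in 37 of 59 cells. Csf2 stood at 166 CPM in them (137 to 199; 116 UMIs in 23 cells). Tnfsf11 was at 57.4 CPM (41.0 to 78.1) and Lif at 10.0 CPM (4.04 to 20.7), the latter on 7 UMIs.

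The other members were led by Tnfsf11, also at 404 CPM (349 to 465), with 192 UMIs in 78 of 102 cells. Ccl1 was at 294 CPM (248 to 347) in 22 of these cells, and Csf2 at 198 CPM (159.7 to 242) in 31. Lif reached 86.2 CPM (61.9 to 117) in 19 cells. A label naming Ccl1 and Csf2 therefore describes part of each subset: the intervals of Csf2 overlapped between the subsets, Ccl1 was the commonest of the 4 genes in Cd8-dominant members, and most of the other members were cells with Tnfsf11.

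**Figure D1:**
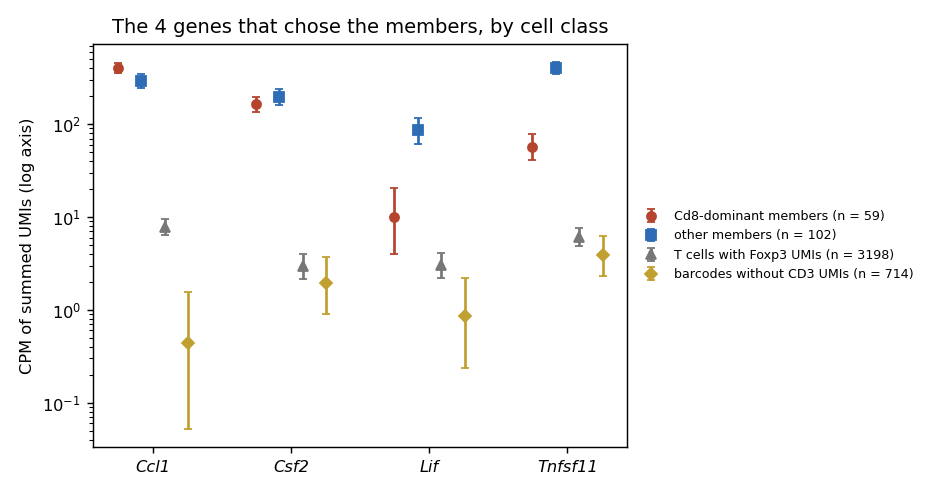
Level of Ccl1, Csf2, Lif and Tnfsf11 in CPM of summed UMIs in Cd8-dominant and other members, in T cells with Foxp3 UMIs and in barcodes without CD3 UMIs, with Poisson 95% intervals. Ccl1 leads in Cd8-dominant members (404 CPM) and Tnfsf11 in other members (404 CPM).

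Members held most of the library's RNA of 2 of the genes, in part by the rule itself, which chose cells by these UMIs. Of 567 Ccl1 UMIs in quality-filtered cells, 49.7% were in Cd8-dominant and 24.7% in other members. For Csf2, 37.5% and 30.4% of 309 UMIs were. Tnfsf11 was spread more widely, with 7.04% and 33.8% of its 568 UMIs, and Lif likewise with 5.07% and 29.7% of 138. A further 34.5% of the Tnfsf11 and 26.1% of the Lif UMIs lay in other cells with 1 UMI, which the threshold set aside. T cells with Foxp3 UMIs had 7.87 CPM of Ccl1 and 6.12 CPM of Tnfsf11, and barcodes without CD3 UMIs had 0.435 and 3.91 CPM. These barcodes had a median of 1343 UMIs, and whether they lacked T cells was not tested.

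Most members were selected through 1 gene. In 33 of 59 Cd8-dominant and 64 of 102 other members all counted UMIs came from a single gene, and 26 (44.1%) and 38 (37.3%) had UMIs of at least 2. The commonest patterns among Cd8-dominant members were Ccl1 alone (20 cells), Ccl1 with Csf2 (8 cells), and Ccl1 with Tnfsf11 or Tnfsf11 alone (7 cells each). Among the other members, Tnfsf11 alone made up 45 cells. A single other member held all 4 transcripts. The sum of the 4 genes ranged from 2 to 35 UMIs in Cd8-dominant members (median 5) and from 2 to 31 in other members (median 3). At the threshold, 16 Cd8-dominant and 47 other members had exactly 2 UMIs, next to the 83 and 279 cells with 1.

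Depth moved with membership. Cd8-dominant members had a median of 10428 UMIs per cell and their comparators 3800, whereas other members had 3802 and their comparators 2197. In cells of 6000 UMIs or more, members were 10.9% of Cd8-dominant and 9.12% of other T cells without Foxp3, and between 1500 and 3000 UMIs they were 0.519% and 1.40%. After each cell of at least 1500 UMIs was thinned to 1500 UMIs, 15 of 1300 Cd8-dominant cells (1.15%, 0.647 to 1.90) and 46 of 3447 other cells (1.33%, 0.979 to 1.78) still had 2 UMIs, compared with 4.24% and 2.25% unthinned. The higher share of members in the Cd8-dominant subset was thus not detectable at equal depth. The thinned share was 0.218% in T cells with Foxp3 and 0 of 337 in barcodes without CD3. Levels are therefore given below as CPM, and a ratio against comparators weighted to the members' depth is added for the named genes and lists whose 2-fold call it changed. The part of depth in each result was not otherwise tested.

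The summed levels of most markers of other cells were lower in the members than in comparators, while the shares of cells with such a UMI did not always follow them. The 6 melanoma markers summed to 4.30 CPM in Cd8-dominant members against 266 CPM in their comparators, and to 4.20 against 821 CPM in the other members, with Pmel, Mlana and Tyrp1 at 0 UMIs in the latter. Macrophage and monocyte markers other than Ly6c2 summed to 18.6 against 567 CPM in the Cd8-dominant subset and to 402 against 1016 CPM in the other subset, and dendritic cell markers to 146 against 299 and 481 against 1411 CPM. The comparators' sums lay partly in single barcodes, with up to 767 macrophage, 860 melanoma and 1264 dendritic cell marker UMIs in 1 cell. A macrophage marker UMI was present in 18.6% of Cd8-dominant members and 17.6% of comparators and in 13.7% of other members and 13.0% of comparators. For melanoma markers the shares were 5.08% and 4.96%, and 1.96% and 5.87%. Dendritic cell markers were in 40.7% of Cd8-dominant members against 21.3% of comparators, the reverse of their summed levels, and in 18.6% against 21.5% in the other subset. Cd74 made up most of these UMIs in Cd8-dominant members, with 84 UMIs in 21 cells, so the share reflects mainly that gene. In the other members, 3 cells with at least 10 UMIs of the macrophage markers and 3 with at least 10 of the dendritic cell markers were kept. B cell markers went the other way in the Cd8-dominant subset, at 22.9 against 9.03 CPM, with 11 of these UMIs in 1 cell, whereas NK cell markers were at 84.6 against 216 CPM there and at 94.6 against 278 CPM in the other subset. ILC2 markers were at 73.1 against 179 and 141 against 409 CPM. Genes within these 2 lists differed in the Cd8-dominant subset. Tyrobp was at 0.0269-fold, Arg1 at 0.0453-fold and Areg at 0.257-fold, but Klre1 was at 0.826-fold and Klrg1 at 0.905-fold. All fibroblast markers were at 0 UMIs in both subsets, as were the mast cell markers in the Cd8-dominant one. The invariant alpha chain of NKT cells, with TRAV11 and TRAJ18 joined, was found in 0 of 35 Cd8-dominant and 0 of 54 other members with an alpha chain, and in 3.92% of 1555 other comparators. For the members, the upper ends of the exact binomial intervals were 10.0% and 6.6%, and 3 counts of the total, the floor used for a count of 0, would be 8.57% and 5.56%.

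In Cd8-dominant members, Lad1, Ccdc184, Cd83 and Tnfsf9 had the highest ratios among genes the rule did not use, and the chemokine Xcl1 and the ligand Cd70 were among the highest 10. Of 4798 genes tested, 89 (1.85%) were at least 2-fold higher and 215 (4.48%) at least 2-fold lower than in Cd8-dominant comparators. These counts describe the same cells that the rule chose, and they were 42 and 132 with comparators weighted to the members' depth. A gene was tested if the mean of both groups was at least 20 CPM. A gene under 20 CPM in comparators could pass only where members were higher, so counts over tested genes are descriptions, and with the filter set on comparators alone 41 genes were higher.

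Lad1, which encodes the anchoring filament protein ladinin, had the highest ratio, with 133 CPM in members against 12.7 CPM in comparators (10.5-fold, 7.77 to 14.3; 93 UMIs in 24 of 59 cells). At equal depth it was seen in 17.2% of members and 0.776% of comparators. Xcl1, the chemokine that draws XCR1+ dendritic cells, had the highest level of the leading genes, at 489 against 106 CPM (4.60-fold, 4.04 to 5.24; 28 cells). At equal depth, 34.5% of members and 7.59% of comparators had an Xcl1 UMI.

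Nrgn, a calmodulin-binding protein best known from neurons, was at 171 against 38.7 CPM (4.40-fold, 3.52 to 5.49). Penk, the precursor of the enkephalin opioid peptides, was at 118 against 23.5 CPM, but its 82 UMIs lay in only 7 members. Ccdc184, at 90.3 against 10.5 CPM (8.61-fold), Cd83, a surface marker of activated lymphocytes and dendritic cells (6.15-fold), Kit, the stem cell factor receptor (3.59-fold), and Ppan, a ribosome assembly factor (3.48-fold), completed the highest 10 beside Tnfsf9 and Cd70.

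Several TNF superfamily ligands other than Tnfsf11 were higher in this subset. Of 9 listed, 5 were tested and 4 of these were at least 2-fold higher, where 1.85% of all genes tested were. However, Tnfsf9, Cd70 and Tnfsf8 passed the filter only through the members. Of the 2 with at least 20 CPM in comparators, Tnfsf10 was higher and Fasl was not. Among the 4 not tested, Cd40lg had a ratio of 1.05 (0.437 to 2.18), Tnfsf14 of 1.38 (0.527 to 3.05), Tnfsf4 of 4.07 (2.25 to 7.08) and Tnfsf13b of 2.27 (0.415 to 8.27). Tnfsf9, which encodes 4-1BBL, was at 58.8 against 9.76 CPM (6.02-fold, 3.98 to 9.02) and Cd70, the ligand of CD27, at 57.4 against 12.2 CPM (4.69-fold, 3.13 to 6.91). Tnfsf8, the CD30 ligand, was 2.80-fold higher and Tnfsf10, which encodes the death ligand TRAIL, 2.73-fold. Fasl, another death ligand, was at 31.5 against 38.3 CPM. With depth-weighted comparators the same count of 4 was higher.

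Few other activation genes were 2-fold apart in the Cd8-dominant subset, where 1.85% of all genes tested were higher and 4.48% lower. Of 15 activation-induced transcription factors tested, Myc was higher (112 against 46.9 CPM, 2.38-fold) and Fos lower (142 against 336 CPM, 0.423-fold), but Fos was at 0.663-fold with depth-weighted comparators. Batf, an AP-1 family factor of effector T cells, was at 228 against 132 CPM, a ratio of 1.73. None of 13 NF-κB feedback genes, 8 calcium and TCR feedback genes or 7 inhibitory receptors tested was 2-fold apart, with Pdcd1, which encodes PD-1, at 218 against 165 CPM. Cd160, an inhibitory receptor of effector cells, was at 115 against 60.3 CPM (1.90-fold), and at 2.11-fold with depth-weighted comparators. Among 10 costimulatory receptors only Crtam was higher (2.27-fold), but at 17.0 CPM in comparators it passed the filter only through the members. None of the 9 with at least 20 CPM in comparators was higher. Ifng, encoding interferon-γ, was at 396 against 265 CPM (1.49-fold).

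Effector chemokines and granzymes went in both directions. Ccl5, the chemokine of memory and effector CD8+ T cells, was at 1148 CPM in members against 6261 CPM in comparators (0.183-fold, 0.171 to 0.197), and at 0.535-fold with depth-weighted comparators. Gzma was at 55.9 against 615 CPM (0.0909-fold) and Gzmk at 43.0 against 191 CPM (0.225-fold), both granzymes of effector and memory cells. Gzmb, the main granzyme of cytotoxic cells, was at 1366 against 1483 CPM. Gzmc was 2.28-fold higher, but 1 cell held 37.8% of its UMIs, and without that cell the ratio was 1.42, and it was 1.37 with depth-weighted comparators. Gzme was 2.81-fold higher on 3 cells, at 1.98-fold with depth-weighted comparators and at 0.837-fold without the cell that held 70.2% of its UMIs. Gzmf was lower, at 0.428-fold, with 85.4% of its UMIs in 1 cell.

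Quiescence and homing genes were lower, and depth moved with that result. Of 12 tested, with a median ratio of 0.409, 9 were at least 2-fold lower, where 4.48% of all genes tested were. Among the 9 were Klf2, the factor that keeps S1pr1 on (152 against 458 CPM), and S1pr1, the receptor that lets T cells leave tissue (10.0 against 41.7 CPM). Il7r, the interleukin 7 receptor, was another (35.8 against 107 CPM). With depth-weighted comparators the median ratio was 0.782 and 1 gene was still 2-fold lower, while Klf2 was at 0.846-fold and S1pr1 and Il7r were both at 0.602-fold. Growth and ribosome biogenesis genes had a median ratio of 1.62, with Srm, the spermidine synthase, the only one of 12 past 2-fold (2.24), and a median of 1.28 with weighted comparators, where Srm was at 1.54-fold.

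The other members were compared with their comparators in the same way. Of 5160 genes tested, 142 (2.75%) were at least 2-fold higher and 291 (5.64%) at least 2-fold lower. With the filter set on comparators alone 71 were higher. The genes named in this paragraph were all under 20 CPM in comparators, so they passed the filter only through the members. Lad1 was at 130.4 against 2.68 CPM (48.7-fold, 31.3 to 77.1; 21 of 102 cells), and Tff1, a secreted trefoil peptide known from gastric mucosa, at 244 against 7.45 CPM (32.7-fold, 24.6 to 43.7; 16 cells). Cd70 was at 54.7 against 2.18 CPM (25.1-fold; 10 cells) and Egr3, an early factor downstream of calcium signals, at 75.7 against 3.51 CPM (21.5-fold; 11 cells). Pdzk1ip1 was 15.7-fold higher and Dusp14, a phosphatase that dampens TCR signaling, 9.14-fold. Sostdc1, a secreted antagonist of BMP and Wnt signaling, and Il1a, the cytokine interleukin 1α, had ratios of 109.9 and 61.0, but these rested on 3 cells and on 1 cell with 97.1% of the UMIs, and Il1a without that cell had a ratio of 1.79.

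Some cytokines were higher in the other members. Of 20 listed, 9 were tested, of which 4 were at least 2-fold higher and none was lower, where 2.75% and 5.64% of all genes tested were. Il2, Il13 and Lta passed the filter only through the members. Ifng was at 259 against 77.7 CPM (3.33-fold, in 20 cells). Lta, which encodes lymphotoxin α, was at 63.1 against 12.9 CPM (4.89-fold; 17 cells). Il13, a type 2 cytokine, was at 77.8 against 7.78 CPM (9.99-fold; 7 cells), and was 4.59-fold higher without the cell with 54.1% of its UMIs. Il2, the T cell growth factor, was at 103 against 6.70 CPM (15.4-fold; 10 cells), and 3.77-fold higher without the cell with 75.5%. Il10, the anti-inflammatory cytokine interleukin 10, was at 2.10 against 36.2 CPM (0.0582-fold, 0.00147 to 0.326) and Il17a, which encodes interleukin 17A, at 2.10 against 14.5 CPM (0.145-fold, 0.00366 to 0.820), on 1 UMI each. Both averaged under 20 CPM and were not tested, nor was Il21, a helper T cell cytokine, at 21 against 1.59 CPM (13.2-fold, 5.49 to 29.9).

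Of the 9 listed TNF superfamily ligands, 6 were tested in this subset and were at least 2-fold higher, where 2.75% of all genes tested were. Cd70, Tnfsf14, Tnfsf9 and Tnfsf10 passed the filter only through the members, so that this count was partly set by the filter. Tnfsf8 and Cd40lg, the 2 with at least 20 CPM in comparators, were higher too, while Fasl, which was not tested, was at 12.6 against 19.2 CPM (0.658-fold, 0.239 to 1.45). Tnfsf8 was at 229 against 41.1 CPM (5.58-fold; 45 of 102 cells), and at equal depth it was seen in 25.0% of members and 6.04% of comparators. Cd40lg, the helper ligand of CD4+ T cells, was at 238 against 102 CPM (2.32-fold; 49 cells). Tnfsf14, which encodes LIGHT, was 4.11-fold higher, Tnfsf9 3.38-fold and Tnfsf10 2.84-fold.

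Part of the activation-induced transcription factors were higher in this subset. Of 17 tested, 7 were at least 2-fold higher and 1, Jun, was lower (252 against 599 CPM). Over all genes tested, 2.75% were higher and 5.64% lower. The median ratio was 1.38 against 0.977 over all genes tested. Other members of the AP-1 family were at ratios below 1, from 0.583 for Fos to 0.956 for Fosb. Egr3 passed the filter only through the members. Bhlhe40, a regulator of cytokine production, was at 534 against 215 CPM (2.48-fold) and Batf at 336 against 128 CPM (2.63-fold). Nr4a3 was 3.17-fold, Irf4 2.46-fold, Myc 2.37-fold and Nr4a2 2.13-fold higher. Myc had 36.4% of its UMIs in 1 cell and was 1.51-fold higher without it. Rel, the NF-κB subunit that drives cytokine genes, was the only one of 13 NF-κB feedback genes past 2-fold (2.21). Cd200, an inhibitory ligand, was 4.35-fold higher, but passed the filter only through the members. Il1r2, the decoy receptor of interleukin 1, was at 162 against 33.1 CPM (4.90-fold, 3.79 to 6.27).

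Several cytotoxic and quiescence genes were lower in the other members. Of 6 cytotoxic genes tested 3 were lower, where 5.64% of all genes tested were. Gzmc was higher, at 158 against 18.2 CPM (8.64-fold, and 4.15-fold without the cell with 52.0% of its UMIs), but passed the filter only through the members. Serpinb6b and Serpinb9, inhibitors of granule proteases, were at 1.13-fold and 0.856-fold. Ccl5 was at 183 against 1678 CPM (0.109-fold), Gzmb at 114 against 387 CPM, Nkg7, a granule protein, at 98.8 against 385 CPM and Gzma at 8.41 against 94.4 CPM. Of 12 quiescence and homing genes, 7 were at least 2-fold lower, against the same 5.64% of all genes tested. The median ratio of the 12 was 0.437, with Klf2 at 294 against 920.3 CPM (0.320-fold). With depth-weighted comparators 5 were 2-fold lower, with a median of 0.544. Cd27, the receptor of CD70, was at 44.2 against 134 CPM (0.330-fold), and Ifngr1, a subunit of the interferon-γ receptor, was at 0.495-fold, and at 0.616-fold with depth-weighted comparators.

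The lowest ratios belonged in both subsets to genes of other cell types. In Cd8-dominant members the lowest were Hbb-bs, a hemoglobin chain, and Lyz2, the lysozyme of macrophages, both at 0 UMIs, and Ccl2, Dct and Ccl7, with 1 UMI each. In the other members they were Hbb-bs, Mlana and Pmel, at 0 UMIs, and Dct and Ccl7, with 1 UMI each. Dct, Mlana and Pmel are melanocyte genes, and Ccl2 and Ccl7 are monocyte chemokines. Comparators included 132 other and 33 Cd8-dominant barcodes with at least 10 UMIs of the macrophage markers.

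**Figure D2:**
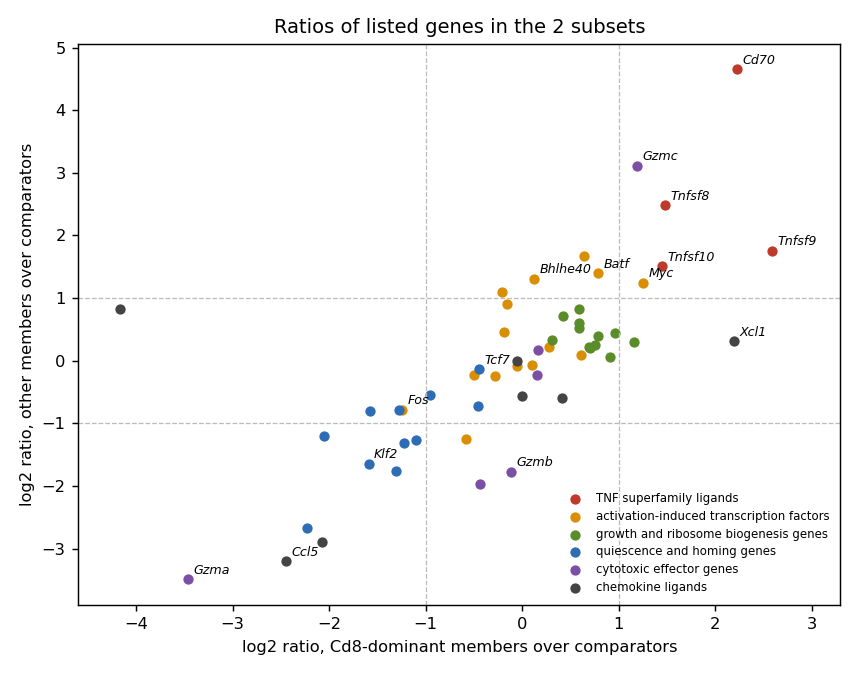
Log2 ratio of members over comparators for listed genes tested in both subsets, Cd8-dominant on the horizontal and other members on the vertical axis, each point being 1 gene of 6 lists and dashed lines marking a 2-fold ratio. TNF superfamily ligands lie to the upper right, and Ccl5 and Gzma to the lower left.

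Both subsets shared part of their higher genes. Among the 4451 genes tested in both, 50 were higher in Cd8-dominant and 88 in other members, and 25 were higher in both, which was 50% of the first and 28.4% of the second list. The lists themselves were 1.12% and 1.98% of these 4451 genes. Genes under 20 CPM in comparators, among them Lad1, Cd70 and Tnfsf9 in both subsets, passed the filter only through the members, so the overlap is a description. With depth-weighted comparators 13 of the 25 were still 2-fold higher in both, among them Lad1, Nrgn, Penk, Myc, Cd70, Tnfsf8, Tnfsf9 and Tnfsf10, while in the Cd8-dominant subset Tff1 was at 1.19-fold, Gzmc at 1.37-fold and Dusp14 at 1.94-fold and in the other subset Cd83 at 1.91-fold. The shared genes included the ligands Cd70, Tnfsf8, Tnfsf9 and Tnfsf10, the secreted peptides Penk and Tff1, and Lad1, Nrgn, Gzmc, Dusp14, Cd83 and Myc. Pdcd1lg2, which encodes the PD-1 ligand PD-L2, was 2.01-fold higher in Cd8-dominant and 2.34-fold in other members. Nop16, Noc4l, Ppan, Mrto4 and Gar1, factors of ribosome assembly, were among the 25 as well, Nop16 at 2.47-fold and 2.84-fold, and of these 5 only Ppan stayed past 2-fold in both with depth-weighted comparators. Xcl1 was not 2-fold apart in the other members, where 2.08% of cells at equal depth had it and 3.66% of their comparators. For genes lower in both, 80 were shared, 38.6% of 207 and 38.5% of 208, lists that were 4.65% and 4.67% of the genes.

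Several of these genes, but not all, had intermediate levels in cells with 1 UMI of the 4 genes, which the comparison did not use. Among those not intermediate in the Cd8-dominant subset were Tnfsf9, at 9.76 CPM with no UMI and 9.56 with 1, and Tnfsf8, at 16.9 and 13.1 CPM. In the other subset they included Penk, at 64.6 and 30.8 CPM, Cd83, at 19.3 and 11.7 CPM, and Xcl1, at 33.9 and 25.5 CPM. Lad1 was at 38.2 CPM in such Cd8-dominant cells, between 12.7 and 133 CPM, and at 10.6 CPM in such other cells, between 2.68 and 130.4 CPM. Tff1 in the other subset was at 7.45 CPM with no UMI, 55.3 with 1, 177 with 2, 232 with 3 to 5 and 359 with 6 or more. Klf2 in the same groups was at 920.3, 717, 497, 238 and 83.4 CPM. In these 2 genes every step went the same way, but the groups from 2 UMIs on held 47, 36 and 19 cells and their median depth went from 2951 to 5489 UMIs. The 1-UMI cells had a median of 2524 UMIs against 2197 in the comparators of the other subset, but 7935 against 3800 in the Cd8-dominant one, so that depth moved with the Lad1 levels there.

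**Figure D3:**
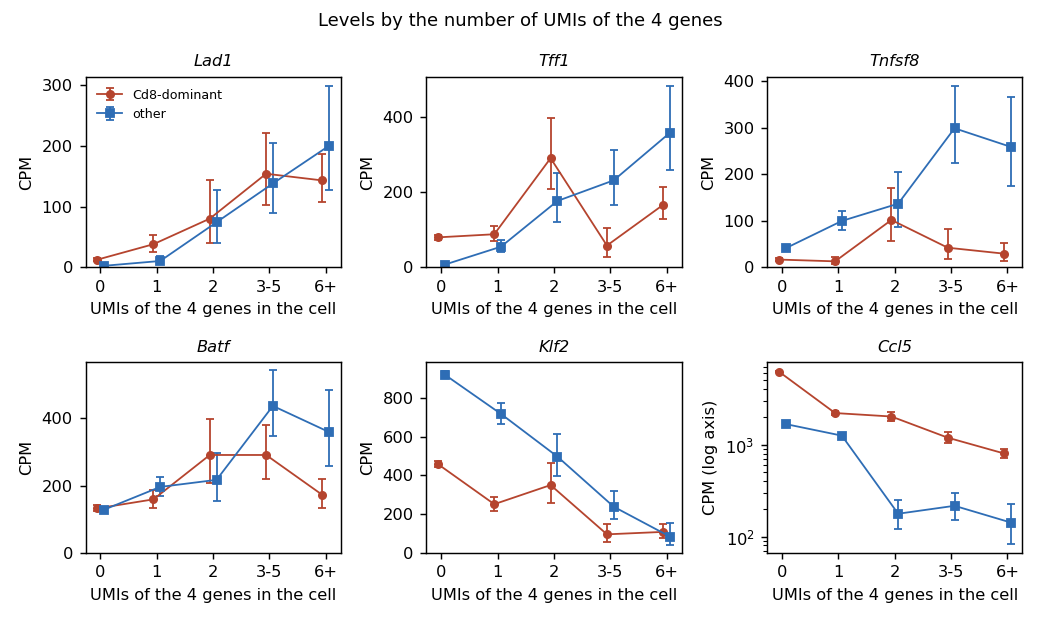
Level in CPM of Lad1, Tff1, Tnfsf8, Batf, Klf2 and Ccl5 by the summed UMIs of Ccl1, Csf2, Lif and Tnfsf11, for Cd8-dominant and other T cells without Foxp3, with Poisson 95% intervals. In the other cells Tff1 goes from 7.45 to 359 CPM and Klf2 from 920.3 to 83.4 CPM across the 5 groups.

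Members differed among themselves by which of the 4 genes they held. Splits by a gene of the rule are descriptions, since members without that gene had to hold at least 2 UMIs of the other rule genes. In Cd8-dominant cells, the 37 with Ccl1 had Nrgn at 224 CPM and the 22 without at 80.7 CPM (ratio 2.78, 1.72 to 4.69), and Xcl1 at 583 against 330.4 CPM. Tnfsf8 went the other way, at 13.7 CPM with and 104 CPM without Ccl1 (0.132, 0.0447 to 0.327), as did Klf2 at 82.4 and 269 CPM. Median depth was 9872 and 11974 UMIs in the 2 groups.

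The other members were split by Tnfsf11, and those without it held more of the other rule genes, in part by the rule itself. Csf2 was at 134 CPM with and 454 CPM without Tnfsf11, and Lif at 42.0 and 264 CPM. Ifng differed by Ccl1 too, at 655 CPM with and 107 CPM without Ccl1, so its level cannot be assigned to Tnfsf11. Ifng was at 63.0 CPM in the 78 cells with Tnfsf11 and at 1045 CPM in the 24 without (ratio 0.0603, 0.0369 to 0.0949), with 10 positive cells in each. Il2 was at 18.4 and 443 CPM, the latter in 3 cells. Penk was at 567 CPM with Tnfsf11, in 12 cells, and at 31.7 CPM without. Cd40lg was at 234 and 253 CPM (0.922, 0.582 to 1.51), and Tnfsf8 was at 244 and 169 CPM. Il13 had 36 of its 37 UMIs in cells with Tnfsf11, but 1 cell held 20 of the 37. Of its 7 positive cells, 6 had Tnfsf11, as did 78 of all 102 other members.

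Members resembled each other in genes the rule did not use, though not tightly. With the 4 genes and TCR segments left out and all cells thinned to 1500 UMIs, 10.2% of the 15 nearest neighbours of Cd8-dominant members were members, against 4.46% of cells in the subset, and 14 of 58 members had no member among their neighbours. For the other members it was 14.7% against 2.79%, with 33 of 96 having none.

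The receptors of the 4 ligands had their highest levels outside the members. Ccr8, the CCL1 receptor, was at 165 CPM in T cells with Foxp3 UMIs, 90.4 in other members, 51.2 in their comparators, 25.8 in Cd8-dominant members, 12.5 in theirs and 8.91 in barcodes without CD3, and the counting intervals of the first 4 in this order did not overlap, while those of the last 3 each overlapped the next. Csf2ra and Csf2rb, the GM-CSF receptor chains, were highest in barcodes without CD3, at 56.7 and 61.1 CPM. Lifr and Tnfrsf11a, the receptors of LIF and RANKL, had 0 UMIs in both subsets, and Il6st, the chain shared by LIF and interleukin 6, was at 14.7 CPM in other members against 44.1 CPM in comparators.

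The TCR library, which the rule did not use, showed 1 segment that differed in the other members. Of 73 other members with a productive beta chain, 22 used the variable segment TRBV20 (30.1%, 19.9 to 42.0), and of 2201 comparators 129 did (5.86%, 4.92 to 6.93). The difference was 24.3 points (14.0 to 36.2). Of 22 segment labels compared, TRBV20 was the only one whose interval lay above 0, and the next largest difference was 1.15 points. This comparison was chosen after the values were seen, and no test was made. In Cd8-dominant members, 5 of 52 used TRBV20 against 42 of 923 comparators, an interval of the difference of -1.54 to 16.5 points. There Trbv20 RNA was at 110.4 CPM (87.1 to 138) against 35.8 CPM (31.5 to 40.6), and TRBV26 was the only one of the 22 labels with an interval above 0, at 6 of 52 against 38 of 923 (7.42 points, 0.0842 to 19.4). T cells with Foxp3 UMIs used TRBV20 in 100 of 1934 cells (5.17%).

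The share of TRBV20 was higher at each step of the 4 genes' sum. It was 5.86% with no UMI, 13.2% with 1 (23 of 174 cells, not members), 19.4% with 2 (7 of 36), 33.3% with 3 to 5 (7 of 21) and 50% with 6 or more (8 of 16). The last group held under 20 cells, and without it the share still went from 5.86% to 33.3%. In cells of 1500 to 6000 UMIs the shares were 24.0% of members and 5.2% of comparators, and with each beta sequence counted once 27.5% and 5.79%. The gene expression library gave a like picture, with a Trbv20 UMI in 34 of 102 other members (33.3%; 261 CPM) and 220 of 4158 comparators (5.29%; 48.7 CPM). Among cells with a Cd4 UMI, the shares were 20 of 50 members (40%) and 73 of 1043 comparators (7.0%).

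**Figure D4:**
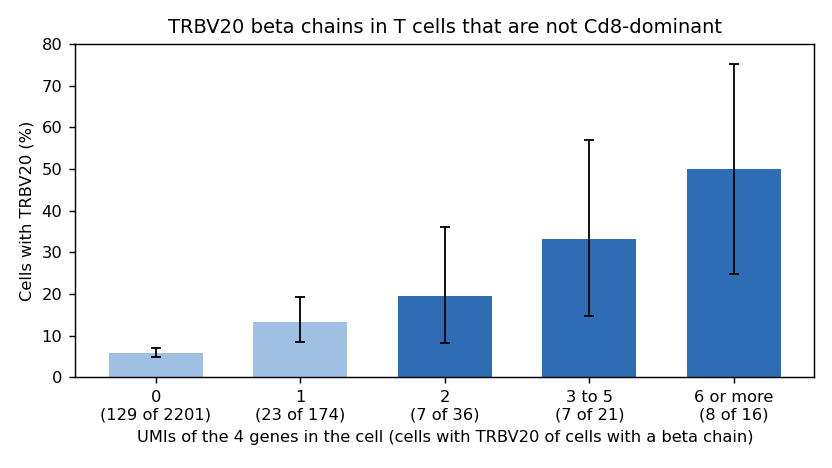
Percent of T cells with a productive beta chain that used TRBV20, by the summed UMIs of the 4 genes, with exact binomial 95% intervals. The cells are T cells without Foxp3 that are not Cd8-dominant. The share goes from 5.86% of other cells with no UMI to 50% of those with 6 or more.

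Most of the TRBV20 members shared a stretch of the junction. In 15 of 22, the CDR3 (the part of the chain formed where the segments join) contained GACTGGGGG, as did 41 of 129 TRBV20 comparators and 2 of 51 members with other variable segments. The stretch was also in 28 of 100 T cells with Foxp3 UMIs and TRBV20, and in 175 of 2072 other comparators with another variable segment. The TCR table gave no D segment for the chains printed here, and where the stretch came from, a germline segment included, was not tested. Likewise 17 of 22 had a CDR3 of 45 bases, against 36 of 129 comparators. The nucleotide sequences below, read from the TCR library 5′ to 3′, are shown because they give this stretch, in capitals with the G bases that follow it, beside the joining segment (TRBJ), which varied.
TRBJ2-4, 4 members: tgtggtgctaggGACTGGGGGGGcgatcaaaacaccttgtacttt
TRBJ2-4, 1 member: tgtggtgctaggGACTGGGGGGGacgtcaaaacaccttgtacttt
TRBJ2-4, 1 member: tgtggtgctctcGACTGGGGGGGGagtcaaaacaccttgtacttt
TRBJ2-2, 1 member: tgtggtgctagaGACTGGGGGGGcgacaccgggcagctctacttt
TRBJ2-2, 1 member: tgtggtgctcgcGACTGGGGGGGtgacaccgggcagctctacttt
TRBJ2-5, 1 member: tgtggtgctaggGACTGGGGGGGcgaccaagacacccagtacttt
The first was found in 4 members of 4 clonotypes, and also in 2 comparators, 5 cells with 1 UMI and 1 T cell with Foxp3. The member with the last sequence had 20 UMIs of Ccl1 and 9 of Tnfsf11. The 22 cells belonged to 22 clonotypes with 19 beta sequences, and only 1 was in a clonotype of at least 2 T cells. In the 15 cells with an alpha chain, 16 distinct alpha sequences and 11 alpha variable segments were found. The joining segments were TRBJ2-4 in 9 members, TRBJ2-2 in 6, TRBJ2-5 in 4, TRBJ2-3 in 2 and TRBJ2-1 in 1.

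TRBV20 members also differed in RNA from members with other variable segments. Penk was at 1416 CPM (1219 to 1636), in 7 of 22 cells, against 12.5 CPM (2.58 to 36.6) in 3 of 51 cells. Tff1 was at 546 against 104 CPM, Lad1 at 192 against 50.1 CPM, Cd200 at 146 against 16.7 CPM and Tnfsf8 at 346 against 129.5 CPM. Tnfsf11 itself was at 446 and 393 CPM, with intervals that overlapped, and Egr3 was lower, at 23.1 against 129.5 CPM. Among comparators, those with TRBV20 had more Tnfsf8 (92.4 against 40.9 CPM) and Il1r2 (105 against 27.0 CPM), but Penk was at 27.3 against 55.7 CPM. The TRBV20 members had a median of 5644 UMIs and the rest 3452, and the part of this depth was not tested. In cells with TRBV20, a Cd4 UMI was present in 20 of 22 members and in 73 of 129 comparators.

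Clonal expansion differed from comparators in the Cd8-dominant subset. Of 52 members with a clonotype, 26 (50%, 35.8 to 64.2) were in clonotypes of at least 2 T cells, against 264 of 948 comparators (27.8%, 25.0 to 30.8), a difference of 22.2 points (7.66 to 36.6). Cd8-dominant cells with 1 UMI were in such clonotypes in 15 of 70 cases (21.4%). Weighting the comparators to the members' depth gave 30.3%. Counting only clonotypes of at least 3 cells, the difference was 4.99 points (-4.91 to 18.5), so it was not detectable there. In the other members, 6 of 75 (8.0%) and in comparators 223 of 2407 (9.26%) were expanded, a difference of -1.26 points (-6.42 to 7.41). With clones set by the beta sequence alone, the difference for the other members was 14.7 points (4.07 to 26.8), so it depended on the clone definition.

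Members were not grouped in a few clones. The 52 Cd8-dominant members came from 51 clonotypes, and the 75 other members from 75. The 25 expanded clonotypes that held a Cd8-dominant member had 69 further T cells, of which 64 had no UMI of the 4 genes and 5 had 1. The only clonotype with 2 members was also the largest with a member, at 15 T cells, and its CDR3 sequences are shown as the one case of shared receptor and state.
TRAV6N-7 and TRAJ21: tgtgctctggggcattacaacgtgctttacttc
TRBV15 and TRBJ2-1: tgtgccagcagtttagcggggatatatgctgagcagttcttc
Counted by the beta sequence alone, which takes in cells of 1 clonotype as well, sequences recurred in 33 of 52 Cd8-dominant members against 388 of 923 comparators and in 24 of 73 other members, 11 of them with TRBV20, against 399 of 2201. At least 2 productive beta chains, which can mark doublets, were found in 13.5% of Cd8-dominant members and 15.1% of other members, against 12.4% and 11.5% of comparators weighted to the same depth.

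**Figure D5:**
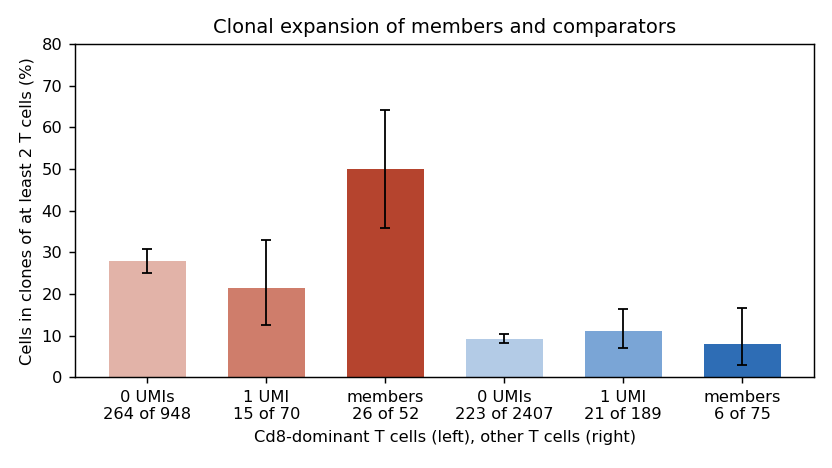
Percent of T cells with a clonotype that were in clonotypes of at least 2 T cells, for members, cells with 1 UMI and comparators of each subset, with exact binomial 95% intervals. Cd8-dominant members are at 50% and their comparators at 27.8%, while other members (8.0%) and comparators (9.26%) overlap.

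The tumor of origin could be read for 12 members only, since the hashtag library held 1378 tag UMIs. Of these 10 carried B16 and 2 B16-IL33 tags (16.7% B16-IL33, 2.09 to 48.4), against 462 and 65 of the comparators (12.3%). With so few tags, the difference of 4.33 points (-10.6 to 36.2) could not be told from 0.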

How the data were processed

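The authors deposited unnormalized UMI counts for each gene and cell barcode, with human and mouse (mm10) genes in 1 reference. The matrix header names Cell Ranger 3.1.0 and the submitters' processing notes Cell Ranger 6.1.1. They deposited UMI counts for each hashtag too, and a table of TCR contigs with UMI counts and clonotypes that names no sample. The library held 14035 barcodes and 43420305 mouse UMIs, and 6665 of the 7857 barcodes in the TCR table and 11756 in the hashtag library were shared with it.

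Cells with at least 200 detected mouse genes and under 5% mitochondrial UMIs were kept, with no upper limit on genes. The study used a limit of 2500, which 37 members exceeded. These were 31 of the 59 Cd8-dominant and 6 of the 102 other members. UMIs were summed per group and divided by the total (CPM). Ratios have exact conditional binomial 95% intervals, shares Clopper-Pearson intervals, and differences of shares square-and-add intervals, all of counting error only. Genes whose 2 groups averaged 20 CPM or more were tested and called at a ratio of 2 or 0.500, without the 4 rule genes and the CD3, Cd4, Cd8a, Cd8b1 and Foxp3 genes. No p-value was computed from cells. The script was tested on simulated data.

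Members and gene lists were chosen with earlier results of these data known. Named genes were the 4 rule genes, the listed genes, and in each subset the 10 highest tested genes with at least 20 member UMIs and the 5 lowest with a mean of at least 50 CPM, without TCR segments. Genes that both subsets share, Il1r2, TCR segments and the splits by Ccl1 and Tnfsf11 were named after their values were seen. No doublet caller was run. Neighbours came from 30 principal components of 2000 variable genes. Alternatives were other limits on genes, mitochondrial share, UMIs and CPM, depth-weighted comparators, means per cell, other clone definitions and, chosen after seeing the data, a filter on comparators alone, thinning, leaving out rule genes, top cells or cells with RNA of other types, and all settings of TRBV20. Gene positions came from GENCODE vM21 and promoters from RefSeq (GRCm38.p6), and all 4 genes matched. Python 3.11.15, NumPy 2.4.6, SciPy 1.17.1, pandas 2.3.3 and scikit-learn 1.9.0 were used. Results for 1 listed gene are not reported here.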

Additional observations from a re-analysis of the deposited data

Results flagged for a closer look

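Outside the compared cells, 35 T cells with Foxp3 UMIs also had at least 2 UMIs of Ccl1, Csf2, Lif and Tnfsf11. They were 1.09% of such cells (0.763 to 1.52) against 0.560% (0.153 to 1.43) of barcodes without CD3, and these intervals overlap. Ccl1 was in 8 of them with 92 UMIs and Tnfsf11 in 16 with 27. Of the 35, 11 were Cd8-dominant, and their median depth was 9184 UMIs with a median of 2 Foxp3 UMIs.

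A further 55 T cells without Foxp3 had the same 2 UMIs but a mitochondrial share of 5.15% to 39.0%, above the limit for members, and were not used in any comparison. Tnfsf11 was in 38 of them, Ccl1 in 20, Csf2 in 15 and Lif in 6, and 18 were Cd8-dominant. Their median depth was 1429 UMIs.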

How the results depend on the processing

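No paired analysis was possible because all cells came from 1 pool. The pool had 4 hashtags, but the 1378 tag UMIs were too few to assign most cells to a tag. The number of members was 98 with at least 3 UMIs, 96 without Tnfsf11 in the rule and 61 after thinning. Counts of genes moved with nearly every choice. For Cd8-dominant members, higher genes numbered 20 at a filter of 50 CPM, 939 without a filter, 42 with depth-weighted comparators, 229 by means per cell, 329 with at most 2500 genes, 152 with at least 3 UMIs, 38 without the top cell of each gene, 135 without Csf2 in the rule, 163 without cells with RNA of other types and 41 with the filter on comparators alone. Lower genes numbered 65, 1087 and 132 at the first 3 settings, 354 without the top cell and 414 with at most 2500 genes. For other members, higher genes numbered 57 at 50 CPM, 947 without a filter, 80 without the top cell, 257 without Tnfsf11 in the rule, 217 without cells with RNA of other types and 71 with the filter on comparators alone, and lower genes 97, 1239, 524 and 486 at the first 4 of these and 519 with at least 3 UMIs. The filter and the number of cells enter these counts by construction, and other causes were not tested.

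Of the genes named in the Cd8-dominant subset, 14 of 17 higher and 24 of 36 lower stayed 2-fold apart with depth-weighted comparators, and in the other subset 27 of 27 and 36 of 39 did. Ratios turned over for Ccl9 in Cd8-dominant members (3.18 with at most 2500 genes, 7.11 without cells with RNA of other types), Gzme (0.837 without its top cell, 0 and 0.982 at those 2 settings), and, with at most 2500 genes, Dct (1.00), H2-Aa (1.56) and H2-Ab1 (1.42). In other members they did for Arg1 (2.26 without cells with RNA of other types) and Il1a (0 with at least 3 UMIs).

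The difference in expanded clones was 4.99 points for Cd8-dominant members from 3 cells on, and 14.7 points (4.07 to 26.8) for other members with clones set by the beta sequence. Members among neighbours were 18.0% and 25.2% without thinning, and 12.5% for other members with 30 neighbours. The TRBV20 difference stayed between 18.8 and 34.7 points over its 7 settings. Depth left 12 members with a tag.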
